A study of Mus musculus with 9 samples.

Results

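The genes described here are 10 of the 23183 gene symbols measured in mouse liver: Nfe2l2, Keap1, Gclc, Gclm, Gsr, Txnrd1, Srxn1, Nqo1, Hmox1, and Osgin1. They were chosen by name as genes of the NRF2 oxidative stress response, with the condition of a value above 0 in at least 1 liver, and all 10 had a value above 0 in each of the 9 livers. The livers were taken at postnatal day 100 from males of the inbred strain C57BL/6J, and each mouse gave 1 library. The ND group (mice 6, 7, and 9) ate a diet with 14% fat for 10 weeks, and the HFD group (mice 1, 2, and 3) ate a diet with 60% fat for 10 weeks. The PRF 50 group (mice 3, 9, and 10) ate the same high-fat diet for 10 weeks and was given PRF, a polymethoxyflavone-rich fraction of Citrus sunki leaves, at 50 mg/kg daily by mouth during the last 5 weeks. The comparisons ask how the high-fat diet and PRF given on top of it alter liver expression. PRF was measured here only in mice on the high-fat diet, and a mouse number names an animal within its group without linking groups.

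NRF2, the product of Nfe2l2, is a transcription factor that is held in the cytoplasm and marked for degradation by KEAP1 in unstressed cells. Oxidants and reactive compounds modify KEAP1, NRF2 then builds up in the nucleus, pairs with small MAF proteins, and binds antioxidant response elements near its target genes. In the liver this response is known for glutathione synthesis, for the thioredoxin system, and for enzymes that detoxify drugs and plant compounds. Because NRF2 is controlled largely through protein stability and location, the RNA of its targets is commonly read as a measure of its activity.

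Each value is 1 deposited number per gene and mouse on a log2 scale, read as log2(FPKM + 1), where FPKM counts sequenced fragments relative to transcript length and library depth. The absolute depth is unknown, and relative depths estimated from the low values lay between 0.963 and 1.60 times that of HFD mouse 1. Groups were compared with limma, a linear model with a variance estimate shared across genes, on all genes whose mean over the 6 mice compared reached 1 FPKM. A gene passed the test at a Benjamini-Hochberg adjusted p under 0.05 over all tested genes. Fold changes are on this log2 scale, on which the changes of weakly expressed genes appear smaller than they are. With 3 mice against 3, the smallest two-sided p of an exact permutation test on a single gene would be 0.1, so none is given. Of 10 hepatocyte markers 9 were above the minimum for testing, led by Apoa1, whose level was between 12.69 and 13.50 in the 9 livers. Albumin (Alb) was listed at 0 in all 9 livers, so a listed 0 says little of a gene's true level.

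The antioxidant response element that NRF2 binds has the core TGACNNNGC, where N is any base. This core was searched on both strands of the RefSeq promoter windows (GRCm38.p6), which run from 250 bases before to 50 bases after a gene's start. Windows were matched by symbol for 7 of the 10 genes, and those of Gclc, Gsr, and Hmox1 were not matched. The core was found in 4 of the 9 windows of the 7 genes, and in 12.4% of all 32851 promoter windows. These are matches of letters and not binding sites. The core lay 240 to 232 bases before the start in Nfe2l2, 134 to 126 bases before the start in Gclm, and 92 to 84 bases before the start in 1 of 3 Txnrd1 windows. In Srxn1 it lay on bases 29 to 37 after the start, and in Gclm, Txnrd1, and Srxn1 it was on the strand opposite to the gene. The windows of Keap1, Nqo1, and Osgin1 did not hold these letters, which says nothing of sites outside them. Sites inside any window with letters other than this core were not searched for. The stretches before the start are shown for Nfe2l2 and Gclm, the regulator and a glutathione gene, and for Nqo1, the gene that separated the HFD group from both other groups and whose window held no core. The Nfe2l2 stretch is chr2:75704664-75704913 (minus strand), where an exon of the non-coding gene E030042O20Rik is also annotated, the Gclm stretch is chr3:122245307-122245556 (plus strand), and the Nqo1 stretch is chr8:107403207-107403455 (minus strand), all on GRCm38.p6 and written 5′ to 3′ along the gene. Capitals mark the core, which in Gclm appears as its reverse complement.
Nfe2l2: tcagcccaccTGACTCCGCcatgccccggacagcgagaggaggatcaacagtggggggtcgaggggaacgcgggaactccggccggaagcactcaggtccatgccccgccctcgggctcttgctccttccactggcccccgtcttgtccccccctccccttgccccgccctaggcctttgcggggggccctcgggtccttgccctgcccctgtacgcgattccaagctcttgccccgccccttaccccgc
Gclm: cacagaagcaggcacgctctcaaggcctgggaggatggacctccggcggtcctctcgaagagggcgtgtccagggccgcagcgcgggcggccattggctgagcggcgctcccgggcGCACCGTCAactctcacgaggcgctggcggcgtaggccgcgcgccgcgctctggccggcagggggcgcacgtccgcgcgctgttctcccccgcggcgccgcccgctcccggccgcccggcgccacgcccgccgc
Nqo1: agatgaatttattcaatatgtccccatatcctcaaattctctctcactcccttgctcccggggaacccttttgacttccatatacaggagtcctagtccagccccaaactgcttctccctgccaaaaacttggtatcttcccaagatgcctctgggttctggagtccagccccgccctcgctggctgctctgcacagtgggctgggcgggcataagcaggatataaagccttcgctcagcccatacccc

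None of the 10 genes passed the limma test in HFD vs. ND, PRF 50 vs. HFD, or PRF 50 vs. ND, at an adjusted p under 0.05. The clearest patterns among them were a higher Nqo1 in all 3 HFD mice than in every other mouse, a lower Gsr in all 6 mice on the high-fat diet than in the ND mice, and a high Hmox1 in 2 of the 3 PRF 50 mice. In HFD vs. ND, 9978 genes were tested, of which 0.702% passed the test as higher and 0.631% as lower. Of 10084 genes tested in PRF 50 vs. HFD, 1.43% passed as higher and 2.16% as lower. Of 10051 genes tested in PRF 50 vs. ND, 0.159% passed as higher and 0.298% as lower. At an unadjusted limma p under 0.05, 3 of the 10 genes were found in HFD vs. ND (Nqo1 and Srxn1 higher, Gsr lower), where 15.1% of all tested genes reached it. The corresponding counts were 3 of 10 in PRF 50 vs. HFD (Nqo1, Gclc, and Srxn1 lower), against 20.2% of all tested genes, and 2 of 10 in PRF 50 vs. ND (Hmox1 higher, Gsr lower), against 12.5%. The second of these counts was 1 without HFD mouse 2, and the third was 1 without ND mouse 6 and 4 without PRF 50 mouse 3.

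Groups without overlap were counted in the same way. All HFD values were above all ND values for 2 of the 10 genes (Nqo1 and Srxn1) and for 10.7% of all tested genes, and below them for 2 genes (Gsr and Txnrd1) and for 10% of all tested genes. All PRF 50 values were above all HFD values for 0 of the 10 genes and for 10.9% of all tested genes, and below them for 2 genes (Nqo1 and Gclc) and for 15.3% of all tested genes. All PRF 50 values were above all ND values for Hmox1 alone among the 10 and for 8.19% of all tested genes, and below them for 2 genes (Nfe2l2 and Gsr) and for 11.8% of all tested genes. Counts this small give no result about the 10 genes as a group. Over the 10 genes, the median log2 fold change was 0.02 in HFD vs. ND, -0.11 in PRF 50 vs. HFD, and -0.09 in PRF 50 vs. ND, beside -0.01, -0.02, and -0.03 for all tested genes, and these medians depended on the scaling. With median-of-ratios scaling they were 0.029, -0.079, and -0.052, beside -0.0022, 0.011, and 0.0059 for all tested genes, and with quantile normalization they were 0.026, -0.025, and -0.045, beside -0.0047, -0.0070, and -0.016.

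**Figure D1:**
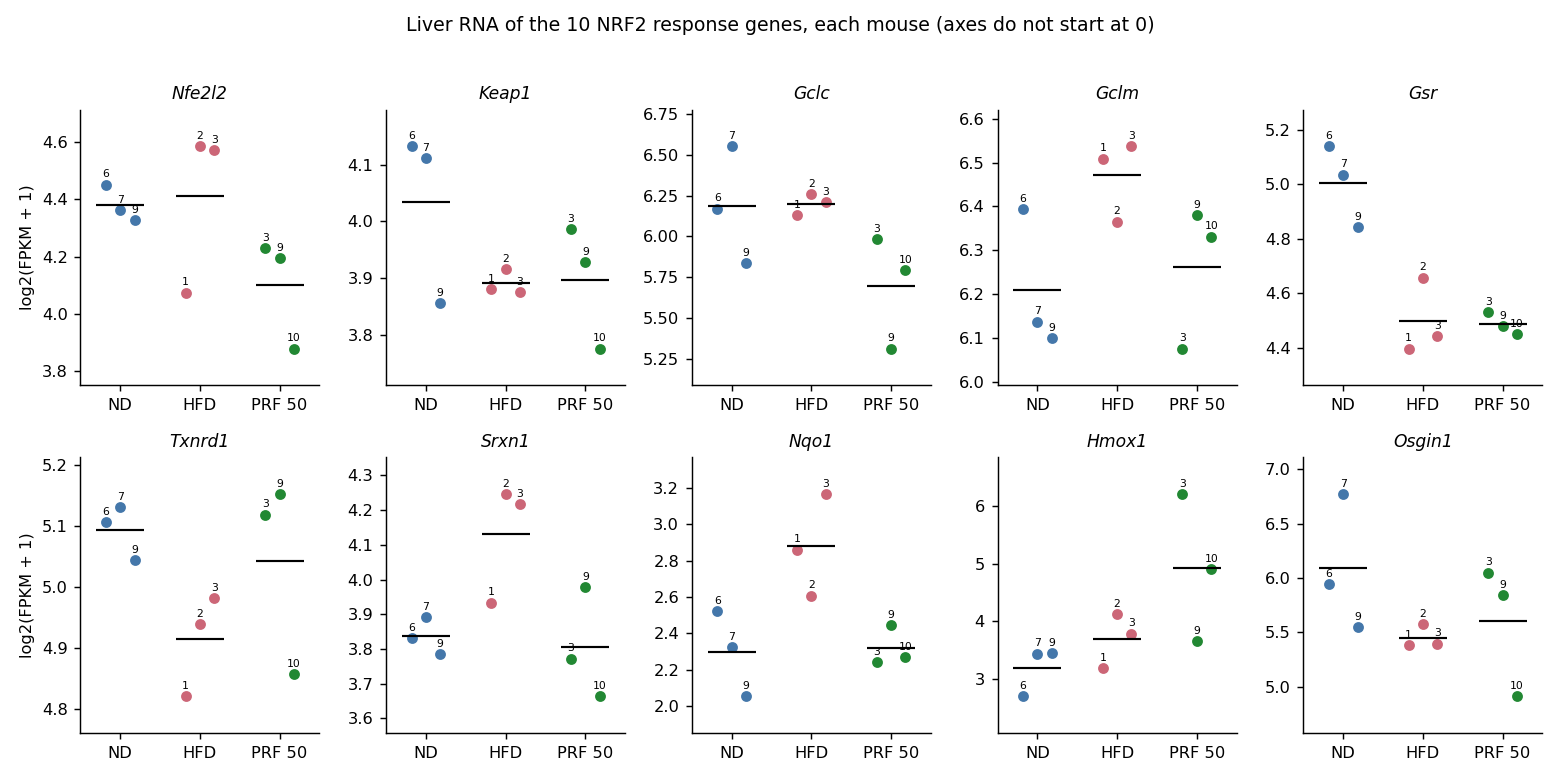
Level of each of the 10 genes in log2(FPKM + 1) on the vertical axis, with 1 point per mouse, the mouse number above it, the 3 groups on the horizontal axis, and a bar at the group mean. The 3 HFD points of Nqo1 lie above all others, the 3 ND points of Gsr lie above all others, and the PRF 50 points of Hmox1 are spread from 3.66 to 6.20.

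Nfe2l2 (chr2:75675513-75704641 on GRCm38, minus strand) encodes the factor itself. Its level was 4.45, 4.36, and 4.33 in ND mice 6, 7, and 9, 4.07, 4.59, and 4.57 in HFD mice 1, 2, and 3, and 4.23, 4.20, and 3.88 in PRF 50 mice 3, 9, and 10. The PRF 50 mice were all below the ND mice but overlapped with HFD mouse 1, which was the low mouse of its group. The log2 fold change was 0.03 in HFD vs. ND (SE 0.15, adjusted p = 0.948 from limma), -0.31 in PRF 50 vs. HFD (SE 0.16, adjusted p = 0.351), and -0.28 in PRF 50 vs. ND (SE 0.12, adjusted p = 0.405). With 1 mouse left out, Nfe2l2 ranged from -0.48 to -0.20 in PRF 50 vs. HFD and from -0.34 to -0.17 in PRF 50 vs. ND.
Keap1 (chr9:21229730-21239361, minus strand) encodes the repressor that presents NRF2 to a ubiquitin ligase. Its level was 4.13, 4.11, and 3.86 in the ND mice, 3.88, 3.92, and 3.88 in the HFD mice, and 3.99, 3.93, and 3.78 in the PRF 50 mice. All 3 groups overlapped. Keap1 differed between PRF 50 and HFD by 0.01 on the log2 scale, with a 95% confidence interval of -0.19 to 0.21 (adjusted p = 0.978).

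Gclc and Gclm encode the catalytic and the modifier subunit of glutamate-cysteine ligase, the rate-limiting enzyme of glutathione synthesis. Gclc (chr9:77754535-77794485, plus strand) had a level of 6.17, 6.55, and 5.84 in the ND mice, 6.13, 6.26, and 6.21 in the HFD mice, and 5.98, 5.31, and 5.79 in the PRF 50 mice. Each PRF 50 mouse was below each HFD mouse. The ND mice overlapped with both groups, but PRF 50 mice 9 and 10 were below all ND mice. Gclc differed by -0.50 on the log2 scale between PRF 50 and HFD (95% confidence interval -0.89 to -0.11, adjusted p = 0.154) and by 0.01 between HFD and ND (-0.39 to 0.42, adjusted p = 0.983). Between PRF 50 and ND the difference was -0.49 (-1.02 to 0.04, adjusted p = 0.425 from limma). With 1 mouse left out, Gclc ranged from -0.65 to -0.31 in PRF 50 vs. HFD and from -0.67 to -0.30 in PRF 50 vs. ND. Gclm (chr3:122245557-122270732, plus strand) was at 6.39, 6.14, and 6.10 in the ND mice, 6.51, 6.37, and 6.54 in the HFD mice, and 6.08, 6.38, and 6.33 in the PRF 50 mice. HFD mice 1 and 3 were the highest, all groups overlapped, and the difference between HFD and ND was 0.26 on the log2 scale (SE 0.12, adjusted p = 0.363).

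Gsr (chr8:33652523-33698163, plus strand) encodes glutathione reductase, which returns oxidized glutathione to its reduced form with NADPH. Its level was 5.14, 5.04, and 4.84 in ND mice 6, 7, and 9, 4.40, 4.66, and 4.44 in HFD mice 1, 2, and 3, and 4.53, 4.48, and 4.45 in PRF 50 mice 3, 9, and 10. The lowest ND mouse was above the highest mouse of both groups on the high-fat diet, and the HFD and PRF 50 mice overlapped. Gsr had a log2 fold change of -0.51 in HFD vs. ND (95% confidence interval -0.79 to -0.23, adjusted p = 0.110) and -0.52 in PRF 50 vs. ND (-0.77 to -0.26, adjusted p = 0.104), comparisons that share the ND mice. Between PRF 50 and HFD the difference was -0.01 (-0.23 to 0.21, adjusted p = 0.963), and its sign turned to 0.018 with median-of-ratios scaling and 0.039 with quantile normalization. Over the 13 alternative settings the adjusted p of Gsr was between 0.0564 and 0.355 in HFD vs. ND and between 0.0531 and 0.303 in PRF 50 vs. ND, without passing the threshold in any of them.

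Txnrd1 and Srxn1 belong to the thioredoxin and peroxiredoxin system. Txnrd1 (chr10:82833951-82897712, plus strand) encodes the cytosolic thioredoxin reductase, and its level was 5.11, 5.13, and 5.04 in the ND mice, 4.82, 4.94, and 4.98 in the HFD mice, and 5.12, 5.15, and 4.86 in the PRF 50 mice. The HFD mice were below the ND mice without overlap, by -0.18 on the log2 scale (95% confidence interval -0.40 to 0.04, adjusted p = 0.437), and PRF 50 mouse 10 was as low as the HFD mice. Srxn1 (chr2:152105516-152111376, plus strand) encodes sulfiredoxin, which repairs over-oxidized peroxiredoxins. Its level was 3.83, 3.89, and 3.79 in the ND mice, 3.93, 4.25, and 4.22 in the HFD mice, and 3.77, 3.98, and 3.66 in the PRF 50 mice. The HFD mice were above the ND mice without overlap, and PRF 50 mouse 9 reached the range of the HFD mice. The log2 fold change of Srxn1 was 0.30 in HFD vs. ND (0.03 to 0.56, adjusted p = 0.286) and -0.33 in PRF 50 vs. HFD (-0.62 to -0.04, adjusted p = 0.194).

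Nqo1 (chr8:107388225-107403206, minus strand) encodes a quinone reductase and is a widely used readout of NRF2 activity. It had the lowest level per transcript length among the 10 genes, with a mean of 4.80 FPKM over the 9 mice, while Gclm had the highest with 79.1 FPKM. Its log2 level was 2.52, 2.32, and 2.05 in ND mice 6, 7, and 9, 2.86, 2.61, and 3.17 in HFD mice 1, 2, and 3, and 2.24, 2.44, and 2.27 in PRF 50 mice 3, 9, and 10. All 3 HFD mice were above all ND and all PRF 50 mice, and the ND and PRF 50 mice overlapped. Nqo1 had a log2 fold change of 0.58 in HFD vs. ND (SE 0.17, 95% confidence interval 0.18 to 0.98, adjusted p = 0.188) and -0.56 in PRF 50 vs. HFD (SE 0.15, -0.91 to -0.21, adjusted p = 0.0942), comparisons that share the HFD mice. Between PRF 50 and ND it was 0.02 (-0.31 to 0.35, adjusted p = 0.969), and -0.00040 with quantile normalization. The 5 genes with the profile closest to Nqo1 among 10047 candidates, by the root-mean-square difference of centred log2 values over the 9 mice, were Fam107b (0.12), Sardh (0.12), Actg1 (0.13), Man2c1os (0.14), and Nnt (0.15). For Gsr the closest were Kin (0.06), Galt (0.08), Fam96b (0.10), Trmu (0.10), and Trip6 (0.10). These neighbours, and those of Hmox1 below, were looked up after the values of the 3 genes had been seen.

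**Figure D2:**
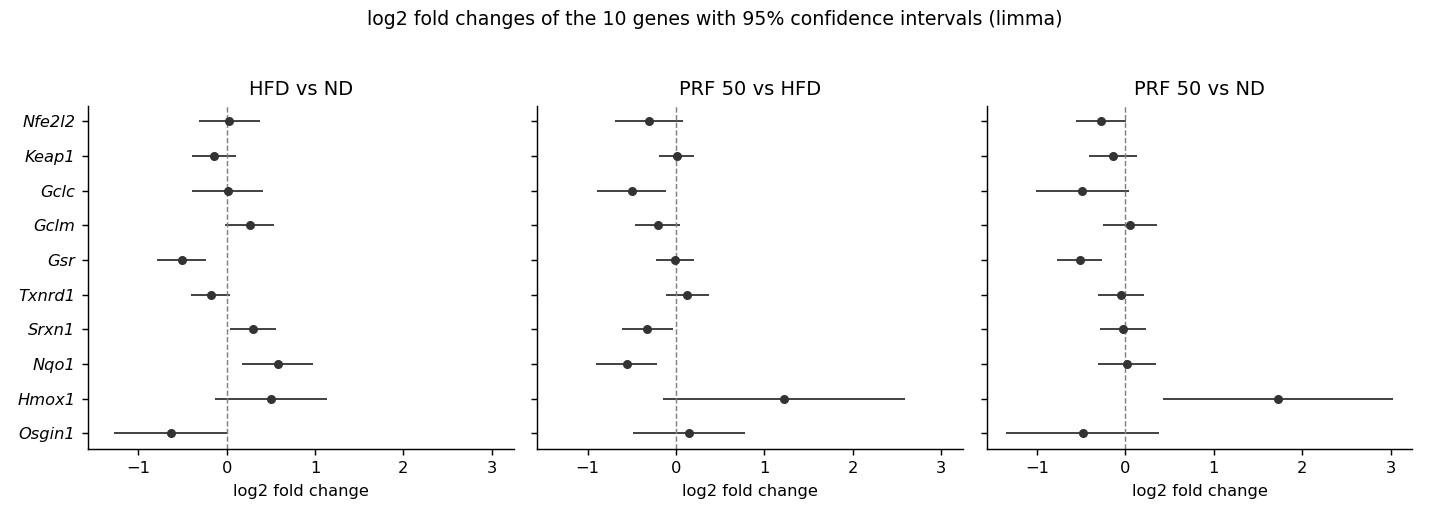
log2 fold change of each of the 10 genes (points) with its 95% confidence interval from limma (lines) on the horizontal axis, for HFD vs. ND, PRF 50 vs. HFD, and PRF 50 vs. ND. The interval of Hmox1 is the widest in PRF 50 vs. HFD, from -0.14 to 2.59, and those of Keap1 (-0.19 to 0.21) and Gsr (-0.23 to 0.21) in that comparison are narrow.

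Osgin1 (chr8:119434124-119446256, plus strand) encodes an oxidative stress-induced growth inhibitor. Its level was 5.94, 6.77, and 5.55 in the ND mice, 5.39, 5.58, and 5.40 in the HFD mice, and 6.05, 5.84, and 4.91 in the PRF 50 mice. Mice of 1 group differed as much as the groups did, and all groups overlapped. Osgin1 had a log2 fold change of -0.63 in HFD vs. ND (95% confidence interval -1.27 to 0.00, adjusted p = 0.332) and 0.15 in PRF 50 vs. HFD (-0.49 to 0.79, adjusted p = 0.810). With 1 mouse left out, the value in HFD vs. ND ranged from -0.90 to -0.29.

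Hmox1 (chr8:75093621-75100589, plus strand) encodes heme oxygenase 1, which breaks down heme and is abundant in macrophages that take up red blood cells. Its level was 2.70, 3.44, and 3.45 in ND mice 6, 7, and 9, 3.19, 4.12, and 3.79 in HFD mice 1, 2, and 3, and 6.20, 3.66, and 4.90 in PRF 50 mice 3, 9, and 10. PRF 50 mouse 3 stood far above all other mice, mouse 10 was next, and mouse 9 lay within the range of the HFD mice. All 3 PRF 50 mice were above the ND mice. Group means (± SD, n = 3 each) were 3.20 ± 0.43 for ND, 3.70 ± 0.47 for HFD, and 4.92 ± 1.27 for PRF 50. Hmox1 differed on the log2 scale by 1.22 in PRF 50 vs. HFD (SE 0.58, 95% confidence interval -0.14 to 2.59, adjusted p = 0.299) and 1.72 in PRF 50 vs. ND (SE 0.56, 0.42 to 3.03, adjusted p = 0.273). Without PRF 50 mouse 3 these values were 0.58 and 1.08, and without PRF 50 mouse 9 they were 1.85 and 2.36, with an adjusted p between 0.0827 and 0.530 over the alternatives of the first comparison and between 0.0967 and 0.512 over those of the other. The study listed Hmox1 among its changed genes from these same libraries, so that its direction here is no independent evidence. That list compares PRF 50 with HFD, at a p under 0.05 and a fold change above 2, as do all mentions of it below. In the limma test used here, Hmox1 did not reach an unadjusted p under 0.05 in that comparison.

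Macrophage and Kupffer cell markers were also high in the PRF 50 livers. Against HFD all 18 markers of this list were tested, all 18 had PRF 50 values above the HFD values without overlap, and 13 passed the test as higher, with a median log2 fold change of 1.36. Of all tested genes, 10.9% were higher without overlap and 1.43% passed as higher in this comparison. The 6 with the smallest adjusted p were the phosphatidylserine receptor Timd4 (log2 fold change 1.49, adjusted p = 0.0150), the complement receptor Vsig4 (1.27, 0.0182), the complement component C1qb (1.45, 0.0237), the lysosomal protein Cd68 (0.99, 0.0238), C1qc (1.45, 0.0251), and the myeloid transcription factor Spi1 (1.09, 0.0251). In HFD vs. ND 0 of 16 tested markers passed the limma test and 0 reached an unadjusted p under 0.05, and in PRF 50 vs. ND 18 of 18 were higher without overlap, against 8.19% of all tested genes, and 1 passed (Spi1, 1.14, adjusted p = 0.0491), against 0.159%. The count of 13 fell to 7 without HFD mouse 1, 1 without HFD mouse 2, 0 without HFD mouse 3, 1 without PRF 50 mouse 3, and 6 without PRF 50 mouse 10, and to 2 with no minimum level, while all 18 markers stayed higher under both other scalings. The PRF 50 vs. HFD calls were lost for Timd4 without HFD mouse 3 or PRF 50 mouse 3, for Vsig4 and C1qc without HFD mouse 2 or 3 or PRF 50 mouse 3, for C1qb without any HFD mouse in turn, and for Cd68 and Spi1 without any HFD mouse or PRF 50 mouse 3 or 10. Over all alternatives, the call was lost in 2 of 12 for Timd4, in 4 of 13 each for Vsig4, C1qb, and C1qc, and in 6 of 12 each for Cd68 and Spi1. With 1 mouse left out, the log2 fold changes of these 6 markers were between 0.91 and 1.62. The count of 1 in PRF 50 vs. ND was 0 without ND mouse 6, ND mouse 7, or PRF 50 mouse 3, and 3 without ND mouse 9, and Spi1 lost its call without any of the 6 mice but ND mouse 9 (fold changes from 0.997 to 1.27). Over all alternatives, Spi1 lost its call in PRF 50 vs. ND in 8 of 12.

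The summed level of the 18 markers was 142, 250, and 320 FPKM in ND mice 6, 7, and 9, 170, 269, and 274 FPKM in HFD mice 1, 2, and 3, and 893, 529, and 575 FPKM in PRF 50 mice 3, 9, and 10. The sum and Hmox1 had the same order of PRF 50 mice, with mouse 3 the highest, mouse 10 the next, and mouse 9 the lowest. Of the 18 markers 12 had this order and 6 did not. Csf1r, C1qa, C1qb, Fcgr1, and Mpeg1 were also highest in mouse 3 but lowest in mouse 10, and the folate receptor gene Folr2 was lowest in mouse 3, at 3.13, 4.14, and 3.94 in PRF 50 mice 3, 9, and 10. The most abundant marker by mean FPKM was Cd5l, with a log2 level of 4.26 to 5.44 in the ND mice, 4.47 to 5.43 in the HFD mice, and 6.29 to 7.02 in the PRF 50 mice, and no marker was at 0 in all 9 mice. The scavenger receptor Marco, singled out after its values were seen as a marker with the order of Hmox1, had a level of 5.90, 2.21, and 4.38 in PRF 50 mice 3, 9, and 10 and at most 2.10 in the other 6 mice. The profiles closest to Hmox1 were those of the lysozyme gene Lyz2 (root-mean-square difference 0.35), Wfdc17 (0.36), Treml4 (0.46), Lrrc25 (0.46), and Cyba (0.48). Lyz2 was at 7.02, 5.59, and 6.43 in PRF 50 mice 3, 9, and 10. Of these markers and neighbours, the study listed Clec4f, Cd5l, Vsig4, Marco, Csf1r, C1qa, C1qb, C1qc, Lyz2, Mpeg1, Ctss, Wfdc17, and Cyba among its changed genes from these libraries, so their direction is no independent evidence. The part of macrophage RNA in the Hmox1 values was not tested, and in bulk liver fewer cells of a type and less RNA per cell, or more of either, cannot be told apart.

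**Figure D3:**
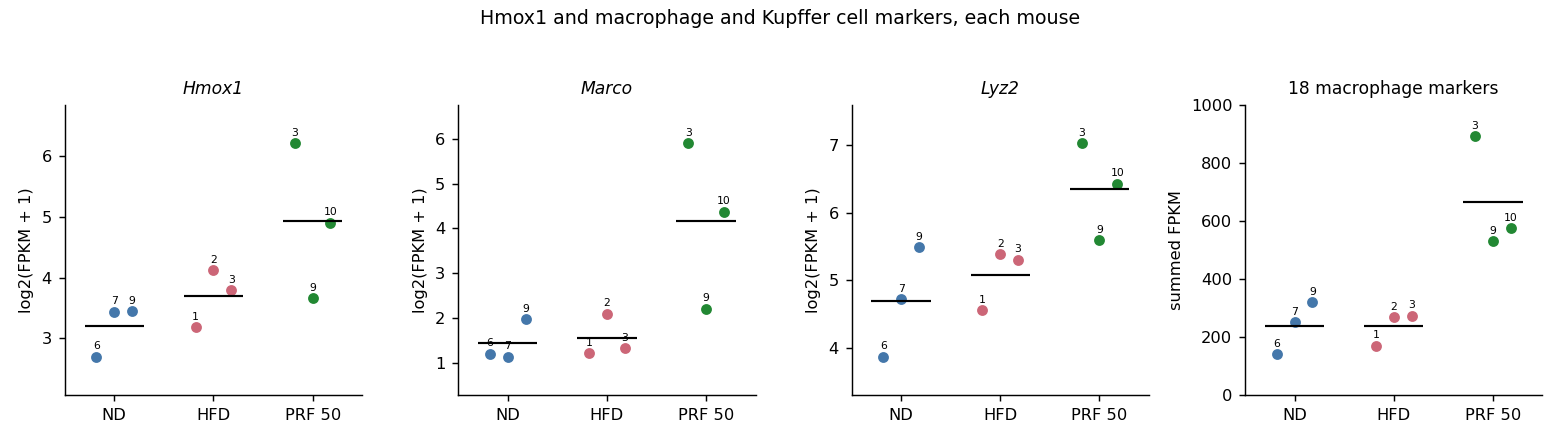
Hmox1, Marco, and Lyz2 in log2(FPKM + 1) and the summed FPKM of the 18 macrophage and Kupffer cell markers, with 1 point per mouse, the mouse number above it, and a bar at the group mean. In each panel PRF 50 mouse 3 is the highest, mouse 10 the next, and mouse 9 the lowest of its group, an order shared by 12 of the 18 markers and not by the other 6.

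Other genes of the pathway were followed in 8 lists of 106 genes beside the 10, and most did not pass the test. Of the list genes, 93 were tested in HFD vs. ND, and 0 passed as higher and 4 as lower, against 0.702% and 0.631% of all tested genes. For PRF 50 vs. HFD 93 were tested, and 2 passed as higher and 4 as lower, against 1.43% and 2.16%. For PRF 50 vs. ND 94 were tested, and 0 passed as higher and 6 as lower, against 0.159% and 0.298%. At an unadjusted limma p under 0.05, 7 list genes were higher and 12 lower in HFD vs. ND, where 7.82% and 7.26% of all tested genes were. By the same measure 7 were higher and 25 lower in PRF 50 vs. HFD, against 8.47% and 11.8%, and 4 were higher and 22 lower in PRF 50 vs. ND, against 6.06% and 6.44%. Of all tested genes, 51.7% had a fold change below 0 in HFD vs. ND, 53% in PRF 50 vs. HFD, and 56.6% in PRF 50 vs. ND. The 4 calls in HFD vs. ND numbered 1 without ND mouse 6 or HFD mouse 2 and 0 without ND mouse 7 or HFD mouse 3. The 6 calls in PRF 50 vs. HFD numbered 0 without HFD mouse 3, 1 without PRF 50 mouse 3, and 3 without PRF 50 mouse 10. The 6 calls in PRF 50 vs. ND numbered 2 without ND mouse 6 or PRF 50 mouse 9, 0 without ND mouse 7 or PRF 50 mouse 3, and 10 without ND mouse 9.

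The 27 NRF2-linked detoxification genes, mainly glutathione transferases, carboxylesterases, and export pumps, held most of these calls. In HFD vs. ND 20 of 25 tested genes were lower and 5 higher, 4 passed the test as lower (Gstp1, Gstm4, Ces2a, and Gstm3, the last named after its values were seen), against 0.631% of all tested genes, and the median log2 fold change was -0.29. Between PRF 50 and HFD 18 of 24 were lower, 2 passed as lower and 1 as higher (1 and 1 under median-of-ratios scaling), against 2.16% and 1.43% of all tested genes, and the median was -0.27. Between PRF 50 and ND 22 of 25 were lower, 4 passed as lower, against 0.298% of all tested genes, 15 of 25 were lower without overlap, against 11.8%, and the median was -0.52. The 4 calls in HFD vs. ND numbered 3 under both other scalings, where Gstm3 did not pass. The medians had the same sign under both other scalings. Reads of glutathione transferase and carboxylesterase genes may be shared with near-identical copies, so that values of single family members are uncertain.

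Gstp1, the pi-class glutathione transferase, was at 10.67, 10.88, and 9.92 in the ND mice, 8.86, 8.47, and 8.56 in the HFD mice, and 10.78, 10.33, and 11.08 in the PRF 50 mice. The HFD mice were below all mice of both other groups, which overlapped. Gstp1 fell by 1.86 in HFD vs. ND (SE 0.25, adjusted p = 0.0192) and rose by 2.10 in PRF 50 vs. HFD (SE 0.21, adjusted p = 0.0116), on the log2 scale. The study listed it among its changed genes from these libraries, so this is no independent evidence. Gstm4, a mu-class transferase, was at 5.31, 5.67, and 5.28 in the ND mice, 4.50, 4.59, and 4.41 in the HFD mice, and 4.30, 4.08, and 4.17 in the PRF 50 mice. It fell by 0.92 in HFD vs. ND (adjusted p = 0.0215) and by 1.24 in PRF 50 vs. ND (adjusted p = 0.0152), and the PRF 50 mice were the lowest. Gsta2, an alpha-class transferase, was at 6.44, 6.26, and 4.86 in the ND mice, 3.57, 3.13, and 4.42 in the HFD mice, and 2.29, 2.33, and 2.94 in the PRF 50 mice. The 3 groups did not overlap, and Gsta2 fell by 3.33 in PRF 50 vs. ND (adjusted p = 0.0217), while -2.15 in HFD vs. ND did not pass (adjusted p = 0.0798).

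Ces2a, a carboxylesterase, was at 8.34, 8.27, and 8.02 in the ND mice, 6.83, 5.45, and 6.29 in the HFD mice, and 6.50, 6.22, and 7.05 in the PRF 50 mice. Both groups on the high-fat diet were below the ND mice without overlap, and Ces2a fell by 2.02 in HFD vs. ND (adjusted p = 0.0278) and fell by 1.62 in PRF 50 vs. ND (adjusted p = 0.0290). Abcc3, an export pump for conjugated compounds, was at 5.79, 5.64, and 5.51 in the ND mice, 5.63, 5.23, and 5.82 in the HFD mice, and 4.62, 4.47, and 4.59 in the PRF 50 mice. The PRF 50 mice were below all others, and Abcc3 fell by 0.998 in PRF 50 vs. HFD (adjusted p = 0.0249) and by 1.09 in PRF 50 vs. ND (adjusted p = 0.0128). The study listed it, too, among its changed genes, so this is no independent evidence. Ephx1, the microsomal epoxide hydrolase, was at 7.91, 8.11, and 7.20 in the ND mice, 7.29, 7.31, and 7.54 in the HFD mice, and 6.86, 6.30, and 6.60 in the PRF 50 mice. The PRF 50 mice were the lowest, and Ephx1 fell by 0.79 in PRF 50 vs. HFD (adjusted p = 0.0420), while -1.15 in PRF 50 vs. ND did not pass (adjusted p = 0.108).
The calls depended on single mice and on the settings. Gstm3 in HFD vs. ND (log2 fold change -1.48, adjusted p = 0.0483) was lost without any of the 6 mice, with fold changes from -1.72 to -1.25, and its adjusted p was between 0.0343 and 0.143 over the alternatives. In HFD vs. ND, Gstp1 was lost without ND mouse 6 or 7 or HFD mouse 2 or 3, Gstm4 without ND mouse 7 or HFD mouse 2 or 3, and Ces2a without any ND mouse in turn or HFD mouse 3, with fold changes from -2.14 to -1.66, -0.99 to -0.80, and -2.34 to -1.65. All HFD vs. ND calls were also lost with no minimum level. Of the 13 alternatives, Gstp1 was lost under 5, Gstm4 under 4, Ces2a under 5, and Gstm3 under 10. As for PRF 50 vs. HFD, Gstp1 was lost without HFD mouse 3, Abcc3 without any of the 6 mice but HFD mouse 2, and Ephx1 without any of the 6 mice, with fold changes from 1.92 to 2.30, -1.16 to -0.87, and -0.93 to -0.65. Ephx1 was lost under 10 of the 13 alternatives, Abcc3 under 6, and Gstp1 under 1. As for PRF 50 vs. ND, Gstm4 was lost without ND mouse 7 or PRF 50 mouse 3 or 9, Abcc3 without ND mouse 7 or PRF 50 mouse 3, and Gsta2 and Ces2a without ND mouse 6 or 7 or PRF 50 mouse 3 or 9, with fold changes from -1.31 to -1.11, -1.15 to -1.02, -3.83 to -3.04, and -1.85 to -1.44. Of the 13 alternatives, Gstm4 was lost under 4, Abcc3 under 2, and Gsta2 and Ces2a under 5 each.

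**Figure D4:**
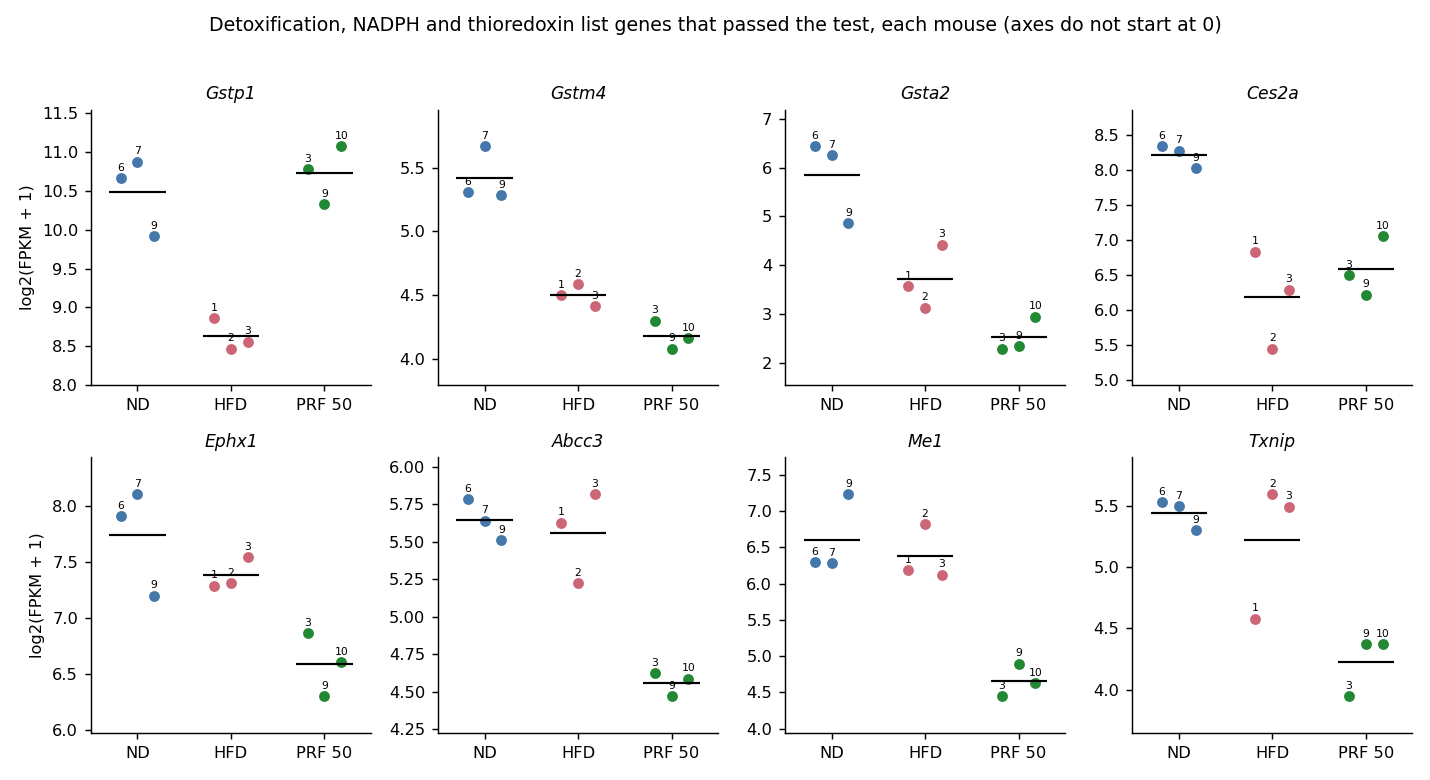
Level in log2(FPKM + 1) of 8 list genes that passed the limma test in at least 1 comparison, with 1 point per mouse, the mouse number above it, and a bar at the group mean. Gstp1 is lowest in the HFD mice, Abcc3, Me1, and Ephx1 are lowest in the PRF 50 mice, and Gstm4 and Ces2a are highest in the ND mice.

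NADPH feeds glutathione reductase, thioredoxin reductase, and NQO1, and 7 genes linked to its supply were tested. Against HFD, 2 passed as lower in the PRF 50 mice, beside 2.16% of all tested genes, and 6 of 7 were lower, beside 53% (median -0.24). The remaining gene, G6pdx, named after its values were seen, was higher without overlap, beside 10.9% of all tested genes. Its log2 fold change of 0.50 did not pass (adjusted p = 0.224 from limma). Against ND, 1 passed as lower in the PRF 50 mice (0 with quantile normalization), beside 0.298%, and 7 of 7 were lower, beside 56.6% (median -0.18). In HFD vs. ND 0 passed the limma test, with 1 at an unadjusted p under 0.05, beside 15.1% (median -0.05). Malic enzyme Me1 was at 6.30, 6.29, and 7.24 in the ND mice, 6.19, 6.82, and 6.12 in the HFD mice, and 4.44, 4.90, and 4.62 in the PRF 50 mice, well below both other groups. Compared with ND, Me1 fell by 1.95 in the PRF 50 mice (adjusted p = 0.0302). This call was lost under 7 of the 13 alternatives, among them without ND mouse 6 or 7 or any PRF 50 mouse (fold changes from -2.11 to -1.64). Compared with HFD, it fell by 1.72 (adjusted p = 0.0148), lost without HFD mouse 3 or PRF 50 mouse 3 (-1.85 to -1.50). Me1 was among the changed genes that the study listed from these libraries, so its direction is no independent evidence. The mitochondrial transhydrogenase gene Nnt, of which C57BL/6J mice are known to lack several exons, was at 5.14, 4.98, and 4.86 in the ND mice, 5.44, 5.41, and 5.45 in the HFD mice, and 4.84, 4.98, and 4.84 in the PRF 50 mice, which overlapped with the ND mice. It fell by 0.55 in PRF 50 vs. HFD (adjusted p = 0.0232), a call lost without HFD mouse 2 or 3 or PRF 50 mouse 3 or 10 (-0.59 to -0.52).

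Of 14 thioredoxin and peroxiredoxin genes, all were tested and 1 passed, in PRF 50 vs. ND, where 0.298% of all tested genes passed as lower. This was Txnip, the thioredoxin inhibitor, at 5.53, 5.50, and 5.30 in the ND mice, 4.58, 5.60, and 5.49 in the HFD mice, and 3.94, 4.37, and 4.37 in the PRF 50 mice. The PRF 50 mice were the lowest, and Txnip fell by 1.21 in PRF 50 vs. ND (adjusted p = 0.0217). This call was lost under 5 of the 13 alternatives, among them without ND mouse 6 or 7 or PRF 50 mouse 3 (-1.28 to -1.07). In PRF 50 vs. HFD the log2 fold change of Txnip was -0.99 without overlap, and it did not pass (adjusted p = 0.0979 from limma). Of all tested genes, 15.3% were lower without overlap in that comparison. The study listed Txnip, too, among its changed genes from these libraries, in PRF 50 vs. HFD and not against ND. Its direction is no independent evidence. The medians of this list were -0.06 in HFD vs. ND, -0.16 in PRF 50 vs. HFD, and -0.21 in PRF 50 vs. ND, and at an unadjusted p under 0.05 the 2 comparisons with 0 calls had 2 and 5 genes, beside 15.1% and 20.2% of all tested genes.

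Of 13 heme and iron genes, 12 were tested in each comparison and 1 passed, the hemoglobin-haptoglobin receptor Cd163, which is expressed by macrophages. It was at 0.98, 1.22, and 2.35 in the ND mice, 0.78, 1.25, and 1.06 in the HFD mice, and 2.42, 2.19, and 2.10 in the PRF 50 mice. ND mouse 9 lay within the range of the PRF 50 mice, and the difference between PRF 50 and ND was 0.72 (adjusted p = 0.416). Against HFD, where 1.43% of all tested genes passed as higher, Cd163 rose by 1.21 (adjusted p = 0.0150). This call was lost under 3 of 12 alternatives, among them without HFD mouse 3 or PRF 50 mouse 3 (1.08 to 1.32 with 1 mouse left out). The list had medians of -0.02, -0.04, and 0.09 in HFD vs. ND, PRF 50 vs. HFD, and PRF 50 vs. ND, of which quantile normalization turned the first to 0.0023 and the next to 0.046. Where 0 passed, 2 genes in HFD vs. ND and 1 gene in PRF 50 vs. ND had an unadjusted p under 0.05, beside 15.1% and 12.5% of all tested genes. The plasma heme and hemoglobin carriers Hpx and Hp, singled out after their values were seen, were highest in PRF 50 mouse 3, at 13.43 and 13.37, and at 12.29 and 12.29 in mouse 9 and 11.42 and 10.61 in mouse 10. In the 6 other mice Hpx was between 11.16 and 11.68 and Hp between 10.04 and 11.59, and the order of PRF 50 mice 9 and 10 was the reverse of that in Hmox1. The study listed both Hp and Hpx among its changed genes from these libraries, so their direction is no independent evidence.

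In the remaining 4 lists 0 genes passed the limma test in any of the 3 comparisons, while quantile normalization gave 1 higher superoxide gene and 1 lower aryl hydrocarbon receptor gene in HFD vs. ND. For the 14 NRF2 sensors and partners, such as Cul3, Mafg, and Bach1, 12 were tested, 2, 2, and 1 of them reached an unadjusted p under 0.05 in HFD vs. ND, PRF 50 vs. HFD, and PRF 50 vs. ND, where 15.1%, 20.2%, and 12.5% of all tested genes did, and the medians were -0.01, -0.06, and -0.12. For the 14 genes of glutathione synthesis and peroxidases, the counts were 1 of 10, 3 of 11, and 1 of 11, with medians of 0.22, -0.20, and -0.03, of which the last turned to 0.0037 with median-of-ratios scaling and 0.052 with quantile normalization. For the 9 genes of superoxide and peroxide removal, they were 1, 2, and 2 of 9, with medians of 0.12, -0.05 (0.079 with quantile normalization), and -0.17. For the 11 genes of the aryl hydrocarbon receptor battery, they were 3, 3, and 1 of 7, with medians of 0.17, -0.24, and 0.02 (-0.00040 with quantile normalization). These 7 include Nfe2l2 and Nqo1 of the 10 genes, and in PRF 50 vs. HFD 5 were lower and 2 higher. Cyp1a2, singled out after its values were seen, went against that median. It was at 8.76, 8.46, and 7.87 in the ND mice, 7.36, 6.41, and 7.11 in the HFD mice, and 8.05, 7.66, and 8.37 in the PRF 50 mice. The study listed Cyp1a2 among its changed genes from these libraries, so its direction is no independent evidence.

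**Figure D5:**
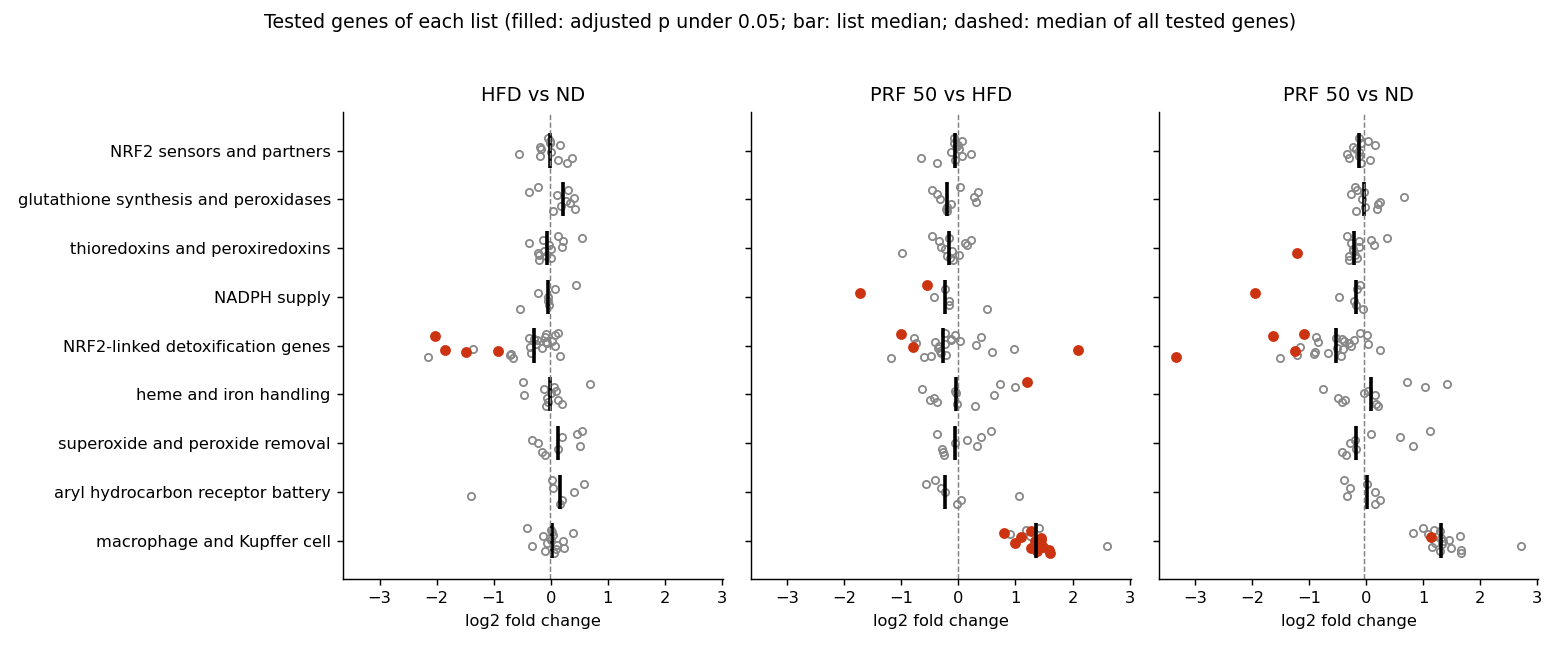
log2 fold change on the horizontal axis of every tested gene of the 8 pathway lists and of the macrophage and Kupffer cell markers, in HFD vs. ND, PRF 50 vs. HFD, and PRF 50 vs. ND. Filled points passed the limma test at an adjusted p under 0.05, the bar is the median of the list, and the dashed line is the median of all tested genes. The macrophage markers have a median of 1.36 in PRF 50 vs. HFD, and the detoxification genes have a median of -0.52 in PRF 50 vs. ND.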

How the data were processed

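Liver RNA-Seq of 9 male mice was used, with 3 mice per group (ND, HFD, and PRF 50) according to the labels. Paired-end reads of poly(A) RNA were trimmed by the authors and aligned with TopHat (mm10, per the submitters' processing notes). FPKM values came from Cufflinks, and the authors state that a geometric normalization between samples was run in edgeR. The deposited log2 values were taken as log2(FPKM + 1), since 0 is the lowest value. The log base and the pseudocount of 1 are inferred. HFD mouse 2 has 1 value of 22.44, for Rnu6, and its median over the tested range of genes (mean of 1 FPKM or more, 3.06) was close to those of the other mice (3.02 to 3.05).

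Groups were compared in R (version 4.3.3) using limma (version 3.58.1), by lmFit and a trended eBayes, fitted to the 6 mice of each comparison for genes whose mean reached 1 FPKM. Adjusted p-values are Benjamini-Hochberg values over all tested genes. The step was tested on simulated data. The genes and lists were chosen with earlier results of these data known. Named from each list were the genes past the test, at most 6 with the smallest adjusted p per list, and the most abundant gene of a marker list, with exceptions marked in the text. By the same rule, neighbours in profile belong to members past the test, of which there were 0. List genes missing under their symbol were matched through RefSeq synonyms (Flvcr1 as Mfsd7b, Selenop as Sepp1, Tf as Trf), and Hbb-bt and Ly6g were not matched. Gene positions are from GENCODE M21 on GRCm38. Read counts were not used here. The alternatives were quantile normalization, median-of-ratios scaling, eBayes without a trend, a minimum of 10 FPKM or none, a pseudocount of 0.1, a joint fit of all 9 mice, and a fit without each single mouse.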

Additional observations from a re-analysis of the deposited data

How the results depend on the processing

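The count of 0 of the 10 genes past the test held in all 3 comparisons under all 13 alternatives, the smallest adjusted p being 0.0531. Nqo1 was not tested at a minimum of 10 FPKM. List genes past the test numbered 4 in HFD vs. ND, 6 in PRF 50 vs. HFD, and 6 in PRF 50 vs. ND. Leaving out 1 mouse gave 0 to 3, 0 to 6, and 0 to 10, with fewer samples in the fit. With no minimum level, where more genes are tested, they were 0 in HFD vs. ND and 1 in PRF 50 vs. ND. The 112 lost calls among named genes kept their direction.

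Counts chosen after seeing the data also moved. Members at an unadjusted p under 0.05 were 1 to 4 in PRF 50 vs. HFD and 1 to 4 in PRF 50 vs. ND when 1 mouse was left out. Macrophage markers past the test in PRF 50 vs. HFD were 0 to 11 when 1 mouse was left out and 2 with no minimum. In PRF 50 vs. ND they were 0 to 3 when 1 mouse was left out, 5 with all 9 mice in 1 fit, and 0 with no minimum, a minimum of 10 FPKM, quantile normalization, or no trend. Apart from the left-out mice and added genes, the cause was not tested.

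Some differences near 0 changed sign. With 1 mouse left out, Nfe2l2 in HFD vs. ND ranged from -0.057 to 0.20, and Gclc from -0.16 to 0.20. In PRF 50 vs. HFD, Keap1 ranged from -0.039 to 0.067, Gsr from -0.063 to 0.068, and Osgin1 from -0.075 to 0.49. In PRF 50 vs. ND, Nqo1 ranged from -0.10 to 0.13, Gclm from -0.0071 to 0.15, Srxn1 from -0.12 to 0.039, and Txnrd1 from -0.11 to 0.042. Median-of-ratios scaling and quantile normalization gave 0.018 and 0.039 for Gsr in PRF 50 vs. HFD, and 0.0088 and 0.020 for Srxn1 in PRF 50 vs. ND. Quantile normalization gave 0.033 for Txnrd1 and -0.00040 for Nqo1 in PRF 50 vs. ND. The cause was not tested. No paired analysis was run, because the groups hold different mice and a shared mouse number does not link them.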

Other observations

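The marker lists of other cell types had 0 genes past the limma test in HFD vs. ND, PRF 50 vs. HFD, and PRF 50 vs. ND. Their counts at an unadjusted p under 0.05, given in this order, stand beside 15.1%, 20.2%, and 12.5% of all tested genes, and their counts of lower genes beside 51.7%, 53%, and 56.6%. Of the 9 tested hepatocyte markers, 2, 1, and 0 reached an unadjusted p under 0.05, 5, 3, and 4 were lower, and the medians were -0.08 (nearly 0 with quantile normalization), 0.19, and 0.04. With quantile normalization 1 of them passed as lower in PRF 50 vs. HFD. Their summed level was between 23057 and 33968 FPKM in the 9 livers. Neutrophil markers, led by S100a8, were listed for 5 of 6 genes and tested for 2, of which 0, 1, and 0 reached an unadjusted p under 0.05 and 1, 0, and 0 were lower, with medians of -0.35, 1.63, and 1.27. Their sum was 54.1, 17.1, and 3.37 FPKM in PRF 50 mice 3, 9, and 10 and between 3.07 and 9.24 FPKM in the other 6 mice. PRF 50 mouse 3 was the highest mouse in Hmox1, in Hp and Hpx, and in the macrophage, neutrophil, bile duct, and lymphocyte sums, and not in the hepatocyte, red blood cell, endothelial, and stellate cell sums. The part of neutrophil RNA in the Hmox1 values was not tested.

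Red blood cell markers, led by Hba-a1, had sums (± SD, n = 3 each) of 169 ± 51.7 FPKM for ND, 149 ± 53.0 FPKM for HFD, and 170.1 ± 16.9 FPKM for PRF 50. Of the 4 tested, 0, 0, and 1 reached an unadjusted p under 0.05 and 3, 2, and 3 were lower, with medians of -0.27, 0.27, and -0.28. Of 6 sinusoidal endothelial markers, led by Clec4g, 1, 0, and 0 reached an unadjusted p under 0.05 and 5, 2, and 4 were lower, with medians of -0.57, 0.45, and -0.22. Their sum was 21.1 FPKM in HFD mouse 1 and between 49.3 and 93.0 FPKM in the other 8 mice. Of 7 stellate cell markers, led by Dcn, 7, 7, and 6 were tested, of which 2, 2, and 0 reached an unadjusted p under 0.05 and 2, 2, and 0 were lower, with medians of 0.29, 0.14, and 0.44. Of the bile duct markers, led by Spp1, 1, 1, and 2 were tested, of which 0, 0, and 1 reached an unadjusted p under 0.05 and 0, 0, and 1 were lower, with medians of 0.16, 0.29, and 0.16 (the last 0.49 with median-of-ratios scaling, where 1 was tested). None of the 7 lymphocyte markers, led by Nkg7, reached the mean of 1 FPKM needed for a test.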
